A study of Homo sapiens with 4 samples.

Results

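The integrins, the laminins and the hemidesmosome genes are the parts by which an epithelial cell holds on to its basement membrane. They were compared here between SCC-15 cells given a microRNA mimic and SCC-15 cells given a negative control. A gene belonged to the group if its symbol on the array began with ITGA, ITGB, LAMA, LAMB or LAMC followed by a digit, or was ITGAV, DST, PLEC, COL17A1 or CD151. The rule reads symbols and no measured value. The rule found 33 of 18132 genes: 20 integrins, 10 laminins, and DST, PLEC and CD151. They were measured by 101 of the 44988 probe sets that the array annotation assigns to 1 gene. LAMA3, COL17A1 and ITGB6 have no such probe set in the annotation used and were not analysed here.

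SCC-15 is an established cell line from a human squamous cell carcinoma of the tongue. Cells received 30 nM of mimic or of the control oligonucleotide miR-NC 24 h after seeding, RNA was taken 36 h later, and each group has 2 Affymetrix arrays. The mimic is called miR-762 in the series title and design text, and miR-585-5p in the labels of both mimic samples, so the group is called mimic throughout. Nothing in the labels says that replicates were separate cultures, so the p-values measure the spread between arrays, which may be technical. Median intensities of the 4 arrays lay between 17.2 and 17.5, replicate arrays correlated at 0.998 (mimic) and 0.997 (control) across probe sets, and the SD of log2 differences was 0.158 and 0.184 within groups against 0.328 to 0.334 between them. The cells carried the epithelial identity their label gives. All 6 measured markers of the epithelial and squamous list (EPCAM, CDH1, KRT5, KRT14, SFN and DSG3) were bright, with mean log2 intensities from 9.41 to 12.07, while TP63 and KRT17 of the list were not analysed here.

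Integrins are receptors made of 1 alpha and 1 beta chain. Laminins are trimers of an alpha, a beta and a gamma chain, and are the main sheet-forming proteins of basement membranes. In stratified epithelium such as the tongue, integrin alpha6beta4 binds laminin-332 and joins the keratin filaments through plectin and the epithelial product of DST, with the tetraspanin CD151 at its side, in a rivet called the hemidesmosome. Integrins with a beta1 chain instead connect laminins and collagens to actin in focal adhesions. The assay reads mRNA only, and in bulk samples fewer cells of a type and less RNA per cell cannot be told apart.

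The 2 microRNAs named in the sources are shown because a mimic is defined by its sequence, and the sources name different ones. Both are human mature sequences from RefSeq (GRCh38.p14), written 5′ to 3′ with the seed, bases 2 to 8, in capitals. Mature miR-762 lies at chr16:30893951-30893972 on the plus strand, and miR-585-5p at chr5:169263649-169263670 on the minus strand.
hsa-miR-762: gGGGCUGGggccggggccgagc
hsa-miR-585-5p: cUAGCACAcagauacgcccaga
Each is 22 bases long, with G or C at 20 bases of miR-762 and at 12 of miR-585-5p. The seeds share the same base at 2 of 7 positions, so the names stand for molecules with different seeds. No target site was searched for in the members, whose transcript sequences were not used here.

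Of the 30 members bright enough to test, 12 were higher in mimic cells, 2 were lower and 16 did not pass the threshold. Differences are mimic minus control in log2 intensity with limma's standard error, and a gene passed at a Benjamini-Hochberg adjusted p under 0.05 over all 14340 genes tested. Over all of those genes, 17.7% were higher and 12.3% were lower, so the members' 40% higher stands above that share and their 6.67% lower below it. The median difference was 0.14 among members and -0.02 among all genes. Both mimic arrays lay above both control arrays for 15 members and below them for 8, while 7 overlapped. Such separation was common on these arrays and was found for 70.4% of all genes. ITGA4, ITGA8 and ITGA9, whose 9 probe sets were all in the dimmest 30% (mean log2 below 2.83), could not be tested. They encode the alpha4, alpha8 and alpha9 chains.

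The calls rested on both mimic arrays. Without either mimic replicate 1 or mimic replicate 2, no gene of the 14340 passed in limma (lowest adjusted p = 0.055), although 11 members stayed under an unadjusted p of 0.05 in each case. Without control replicate 1, ITGB8, DST and ITGB4 still passed, and without control replicate 2 these 3, ITGA7 and, in the lower direction, ITGA10 passed. No call below held in all 4 of these reduced fits.

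**Figure D1:**
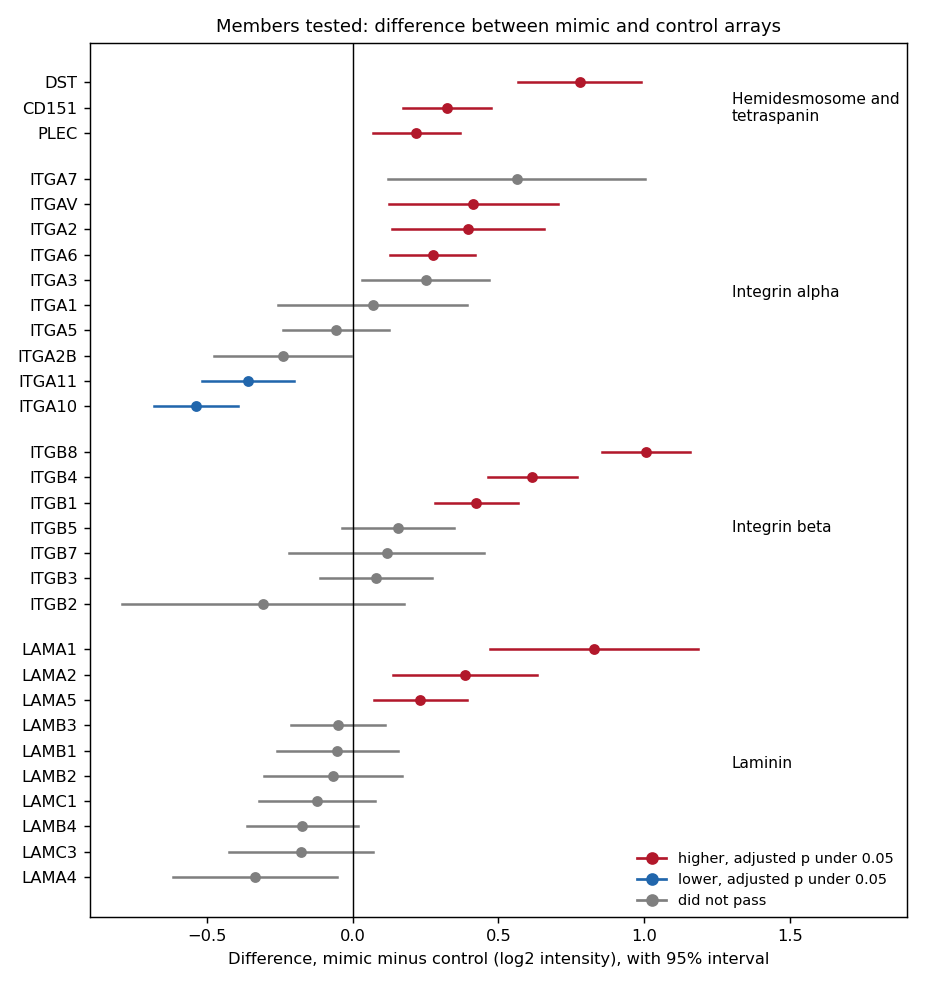
Difference in log2 intensity (mimic minus control, x axis) for each of the 30 members tested, grouped by role, with the 95% interval from limma; red points were higher and blue points lower at an adjusted p under 0.05. The hemidesmosome genes and 6 of the 7 integrin beta chains lie right of 0, with 3 of those beta chains in red. The laminin beta and gamma chains lie at or left of 0.

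All 5 hemidesmosome genes that could be measured (ITGA6, ITGB4, DST, PLEC and CD151) passed in the higher direction in the main fit. Their differences ran from 0.22 to 0.78, with a median of 0.32. Over all genes 17.7% were higher, and 22.6% of those with a mean log2 of 6 or more, the level range of these 5. The calls of ITGA6, PLEC and CD151 depended on the processing, and 4 of the 8 ITGB4 probe sets did not pass. DST, whose epithelial product anchors keratin at the hemidesmosome plaque, read 9.46 and 9.53 in the mimic arrays and 8.80 and 8.63 in the controls. The groups were far apart, at 0.78 ± 0.081 (adjusted p = 0.00453, 1.71-fold). ITGB4, the beta chain found in hemidesmosomes, read 8.11 and 8.13 against 7.53 and 7.47. Its difference was 0.62 ± 0.060 (adjusted p = 0.00379, 1.53-fold).

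The other 3 hemidesmosome genes moved less. ITGA6, the alpha partner of ITGB4, read 10.80 and 10.79 in mimic and 10.54 and 10.50 in control cells, a difference of 0.27 ± 0.057 (adjusted p = 0.0249, 1.21-fold). CD151, a tetraspanin that binds the laminin-binding integrins, read 10.15 in both mimic arrays against 9.86 and 9.80, a difference of 0.32 ± 0.058 (adjusted p = 0.0175, 1.25-fold). PLEC, which encodes the keratin linker plectin, read 10.05 and 10.06 against 9.82 and 9.86, and its 0.22 ± 0.058 stood just inside the threshold (adjusted p = 0.0456, 1.16-fold). In each of the 3 genes the arrays of a group lay closer to one another than to the other group. PLEC did not pass after quantile normalization (0.15, adjusted p = 0.0922) or with no filter on dim genes (adjusted p = 0.0688). With the replicate number as a block, neither PLEC nor ITGA6 passed. CD151 did not pass on its only probe set outside the _x_at class, a class whose probes may pick up similar transcripts (0.14, adjusted p = 0.157).

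**Figure D2:**
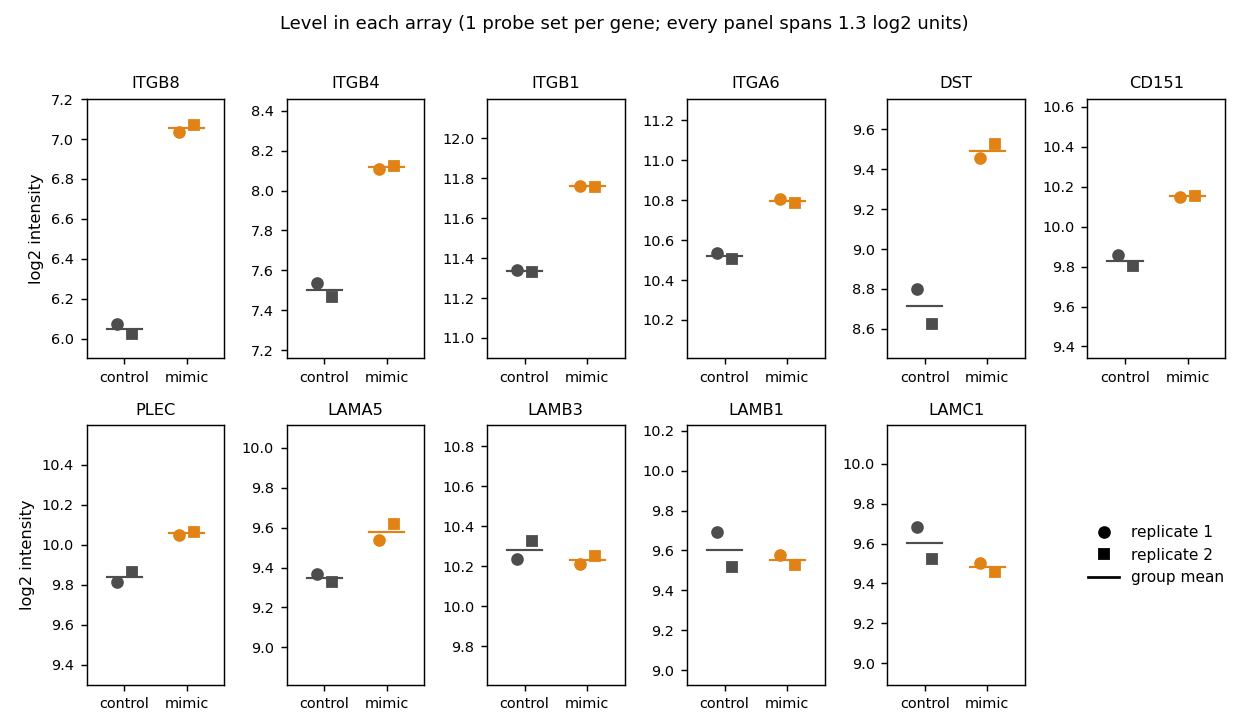
Log2 intensity (y axis) in each control (grey) and mimic (orange) array for 11 members, with circles for replicate 1, squares for replicate 2 and a line at the group mean; every panel spans 1.3 log2 units. Both mimic arrays are above both controls for ITGB8, ITGB4, ITGB1, ITGA6, DST, CD151, PLEC and LAMA5, while the groups overlap for LAMB3 and LAMB1 and mimic lies slightly lower for LAMC1.

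Among the integrin beta chains, 3 of 7 rose and none fell, with 0 lower also at an unadjusted p under 0.05. The share higher was 42.9%, beside 17.7% higher and 12.3% lower over all genes. ITGB8 had the largest difference of the 30 members tested. Its product pairs with the alphaV chain and is known for releasing active TGF-beta from its latent complex. ITGB8 read 7.04 and 7.07 in mimic cells and 6.07 and 6.02 in controls, so the arrays of a group nearly coincided while the groups differed by 1.01 ± 0.059 (adjusted p = 0.0013, 2.01-fold). That difference ranked 288 among the 14340 genes when sorted from the highest. ITGB1, the shared beta chain of many collagen, fibronectin and laminin receptors, read 11.76 in both mimic arrays and 11.34 and 11.33 in the controls, a difference of 0.42 ± 0.056 (adjusted p = 0.00769, 1.34-fold).

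The remaining beta chains did not pass. ITGB5, which pairs with alphaV to bind vitronectin, differed by 0.15 (adjusted p = 0.173). ITGB3, the beta chain of platelet and alphaV receptors, differed by 0.08 (adjusted p = 0.453), and ITGB7 of lymphocytes by 0.12 (adjusted p = 0.529). ITGB2, the leukocyte beta chain, differed by -0.31 (adjusted p = 0.261), with its mimic arrays well apart at 3.57 and 4.13. The second probe set of ITGB7 was lower at -0.35 (adjusted p = 0.04 in the fit over all probe sets), so the gene has no settled direction.

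Among the integrin alpha chains, 3 of 10 rose and 2 fell (30% and 20%, beside 17.7% and 12.3% of all genes). With so few genes, these shares cannot be told from those over all genes. ITGAV, the alpha partner of ITGB8, ITGB5 and ITGB3, read 7.66 in both mimic arrays and 7.40 and 7.09 in the controls. Its difference of 0.41 ± 0.11 (adjusted p = 0.0488, 1.33-fold) ended with quantile normalization (0.31, adjusted p = 0.102) and with no filter (adjusted p = 0.0673). The difference was 0.26 without control replicate 2, and turned to -0.09 on the only other ITGAV probe set above the dim level. ITGA2, the alpha chain of the epithelial collagen receptor, read 8.60 and 8.62 against 8.35 and 8.08, or 0.40 ± 0.10 (adjusted p = 0.0421, 1.32-fold). It too failed to pass after quantile normalization (adjusted p = 0.0857) and with no filter (adjusted p = 0.059), and it was 0.26 without control replicate 2.

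Of the laminin-binding alpha chains, ITGA6 was the only one of 3 to pass. ITGA3, which binds laminins together with the beta1 chain, read 8.29 and 8.30 against 8.15 and 7.95. Both mimic arrays were above both controls, but 0.25 ± 0.085 (95% interval 0.03 to 0.47) missed the threshold (adjusted p = 0.0819) and was 0.15 without control replicate 2. The other ITGA3 probe sets, also above the dim level, read 0.24 and -0.28, so its probe sets disagreed in direction. ITGA7, a laminin receptor best known from muscle, read 3.63 and 3.68 against 2.84 and 3.34. The controls lay far apart, and the difference of 0.56 ± 0.17 missed the threshold (adjusted p = 0.0635) but passed without control replicate 2 (0.82, adjusted p = 0.043).

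The members that fell both encode collagen receptor chains and had mean log2 intensities of 4.92 (ITGA10) and 3.52 (ITGA11). ITGA10, known from cartilage, read 4.66 and 4.65 in mimic cells and 5.20 and 5.19 in controls, a difference of -0.54 ± 0.056 (adjusted p = 0.00437, 1.45-fold lower). ITGA11, known from fibroblasts, read 3.30 and 3.38 against 3.69 and 3.72, or -0.36 ± 0.061 (adjusted p = 0.0152, 1.28-fold lower). Their other probe sets above the dim level read -0.03 for ITGA10 and 0.08 for ITGA11. Neither fall was therefore seen on a second probe set, and ITGA11 did not pass as the mean of its probe sets (-0.14, adjusted p = 0.157). The fibroblast markers were low in every array: COL3A1, DCN and LUM of the 6 were below the dim level, the 6 means ran from 1.13 to 4.50, and the summed log2 level was 16.8 and 17.4 in mimic against 18.0 and 18.3 in control arrays. Their part in the lower ITGA10 and ITGA11 values was not tested.

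ITGA1, ITGA5 and ITGA2B made up the rest of the alpha chains tested. ITGA5, the alpha chain of the fibronectin receptor, differed by -0.06 with a 95% interval from -0.24 to 0.12, and its 4 probe sets all lay between -0.12 and -0.04. ITGA1, a collagen receptor chain, differed by 0.07 (adjusted p = 0.704). ITGA2B of platelets differed by -0.24 (adjusted p = 0.105), with all 3 probe sets negative (-0.41 to -0.24) and 1 of them called lower. As the mean of its probe sets ITGA2B passed at -0.32 (adjusted p = 0.0339). The platelet markers PF4 and GP9 read lower in mimic cells (summed log2 level of 3 markers 9.39 and 9.05 against 9.82 and 9.78) and PPBP was below the dim level. Of the leukocyte markers, PTPRC was below the dim level in all 4 arrays while CD14 (0.53) and CD68 (0.34) were higher, so the summed level of the 4 measured was 16.1 and 16.2 in mimic against 15.5 and 15.2 in control arrays. What part these had in the ITGB2, ITGB7 and ITGA2B values was not tested.

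Few of the laminins were called. Of the alpha chains 3 of 4 rose, and of the 4 beta and 2 gamma chains none passed in either direction, with 0 higher and 0 lower at an unadjusted p under 0.05. Over the 10 laminins 30% were higher and none lower, beside 17.7% and 12.3% of all genes. So few genes cannot tell these shares from those over all genes, nor show a difference between chain types. LAMA1, the alpha chain of an early embryonic laminin, read 3.88 and 4.03 in mimic and 3.31 and 2.94 in control cells, a difference of 0.83 ± 0.14 (adjusted p = 0.0146, 1.77-fold). It was measured by 1 probe set close to the dim level of 2.83, and the difference was 0.64 without control replicate 2. LAMA2, the alpha chain typical of muscle, read 4.86 and 4.64 against 4.42 and 4.31, or 0.39 ± 0.096 (adjusted p = 0.0396, 1.31-fold), and did not pass with no filter (adjusted p = 0.056).

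LAMA5, the alpha chain of a laminin of mature epithelial basement membranes, read 9.54 and 9.62 in mimic and 9.37 and 9.33 in control cells. Its 0.23 ± 0.062 passed narrowly (adjusted p = 0.0474, 1.17-fold), but not with no filter (adjusted p = 0.07), after quantile normalization (0.16, adjusted p = 0.113), without _s_at and _x_at probe sets (adjusted p = 0.0598) or as the mean of its probe sets (0.10, adjusted p = 0.332). LAMA4, an endothelial and mesenchymal alpha chain, pointed the other way at -0.33 (adjusted p = 0.0742). Its probe sets above the dim level ran from -0.33 to 0.20. The endothelial markers PECAM1, VWF, CDH5 and TEK had mean log2 levels from 2.45 to 4.83, TEK below the dim level. Their summed log2 level was 15.3 and 15.1 in mimic against 15.6 and 15.7 in control arrays, with VWF at -0.28 and CDH5 at -0.15, and their part in the LAMA4 value was not tested.

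LAMB3, the beta chain of laminin-332 to which integrin alpha6beta4 binds, read 10.21 and 10.25 in mimic and 10.24 and 10.32 in control cells. The arrays of the groups overlapped, and the difference was -0.05 with a 95% interval from -0.21 to 0.11 (adjusted p = 0.572). LAMB1, which joins many laminin trimers, read 9.58 and 9.53 against 9.69 and 9.52, a difference of -0.05 with an interval from -0.26 to 0.15. LAMC1, the most widely used gamma chain, read 9.50 and 9.46 against 9.68 and 9.52, or -0.12 (interval -0.32 to 0.08). The 4 LAMC1 probe sets above the dim level were split, from -0.31 to 0.27. None of these intervals shows that a gene kept its level.

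LAMB2, LAMB4 and LAMC3 complete the laminins. LAMB2, a beta chain of neuromuscular and kidney basement membranes, differed by -0.07 (adjusted p = 0.596). LAMB4 differed by -0.17 (adjusted p = 0.135) and was called lower after quantile normalization (-0.28, adjusted p = 0.0434). Quantile normalization moved the median of all genes from -0.02 to -0.07, and the median of the 10 laminins from -0.06 to -0.13. LAMC3, a gamma chain of restricted expression, differed by -0.18 (adjusted p = 0.214).

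Probe sets of 1 gene differ in which transcript ends and exons they read, so all 101 were also tested, dim ones included, in a fit over all 44988 single-gene probe sets. Among the members 19 were higher and 4 lower, or 18.8% and 3.96%, against 8.18% and 3.59% of all probe sets. The integrins held 13 of 64 higher and 4 lower. The laminins held 1 of 23 higher, the probe set of LAMA1, and none lower, with 4 in each direction at an unadjusted p under 0.05. Of the 30 dim probe sets none passed, and 2 were higher and 0 lower at an unadjusted p under 0.05. PLEC, LAMA2, LAMA5, ITGA2 and ITGAV, called among genes, did not pass in this larger family (adjusted p = 0.107, 0.0764, 0.106, 0.0796 and 0.0889).

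ITGB1 rose on every probe set above the dim level. All 4 were higher, by 0.42, 0.60, 0.73 and 0.85, and the dim one read -0.11. ITGB8 followed, with 3 of 3 above the dim level higher by 1.01, 0.87 and 0.89, and the dim one at -0.00. ITGA6 rose on 2 of 3 probe sets (0.52 and 0.42), and the one that represents the gene did not pass in this fit (0.27, adjusted p = 0.0661). CD151 rose on 3 of 5, with all 5 positive between 0.14 and 0.37.

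ITGB4 divided into separate sets of probes. Of its 8 probe sets 4 were higher by 0.62, 0.66, 0.59 and 0.54, and the other 4 read -0.17, -0.02, -0.10 and -0.05 without passing. The mean over all 8 was 0.26 and passed. DST was similar in that its 3 probe sets above the dim level read 0.78, 0.29 and 0.95, of which the first and last were higher, and its 5 dim ones lay between -0.11 and 0.27. As the mean over all 8 it was 0.29 and passed, and ITGB8 likewise was 0.69 and ITGA10 -0.24. DST makes several long proteins from different starts, and which of them each probe set reads was not analysed here.

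**Figure D3:**
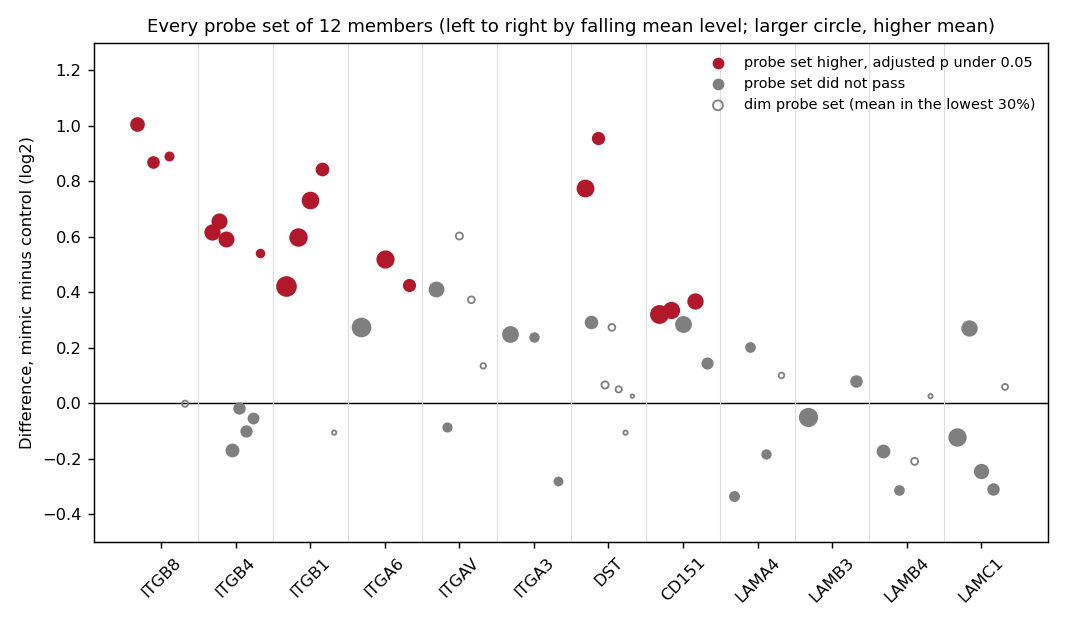
Difference in log2 intensity (mimic minus control, y axis) of every probe set of 12 members, ordered within a gene by falling mean level; larger circles have a higher mean, red circles were higher at an adjusted p under 0.05 and open circles are dim. ITGB1 and ITGB8 are red at every probe set above the dim level, ITGB4 is split into 4 red circles and 4 near or just below 0, and LAMA4, LAMB3, LAMB4 and LAMC1 have no red circle.

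The calls can also be read by level on the array. Among the 17 members with a mean log2 intensity of 6 or more, a level chosen after the values were seen, 10 were higher and none lower (0 lower at an unadjusted p under 0.05), against 22.6% and 11.6% of all genes that bright. Among the 13 dimmer members 2 were higher (LAMA1 and LAMA2) and 2 lower (ITGA10 and ITGA11). Both counts are 15.4%, near the 12.8% higher and 13.0% lower of all genes under that level. The 7 bright members that did not pass were ITGA3, ITGA5, ITGB5, LAMB1, LAMB2, LAMB3 and LAMC1.

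Promoters are shown for 3 of the genes that rose and for LAMB3, the hemidesmosome ligand chain that did not pass, so that genes with different outcomes can be read side by side. Each is the 250 bases before a RefSeq transcription start in GRCh38.p14, in the direction of the gene: ITGB8 at chr7:20330650-20330899 (plus strand), ITGB1 at chr10:32958231-32958480, DST at chr6:56954831-56955080 and LAMB3 at chr1:209652426-209652675 (all minus strand). Capitals mark matches on either strand to the GC box GGGCGG, the AP-1 site TGAGTCA, the CCAAT box CCAAT and the TATA box TATAAA.
ITGB8: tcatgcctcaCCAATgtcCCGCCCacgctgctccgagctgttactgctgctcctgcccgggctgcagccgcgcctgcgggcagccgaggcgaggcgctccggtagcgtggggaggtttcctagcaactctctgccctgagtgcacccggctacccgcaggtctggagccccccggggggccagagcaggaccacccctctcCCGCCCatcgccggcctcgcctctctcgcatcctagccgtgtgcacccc
ITGB1: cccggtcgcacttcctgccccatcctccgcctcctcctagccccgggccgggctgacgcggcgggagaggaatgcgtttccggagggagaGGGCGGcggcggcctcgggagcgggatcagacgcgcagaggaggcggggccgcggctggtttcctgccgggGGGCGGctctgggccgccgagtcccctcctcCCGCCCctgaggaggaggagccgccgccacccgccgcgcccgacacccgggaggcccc
DST: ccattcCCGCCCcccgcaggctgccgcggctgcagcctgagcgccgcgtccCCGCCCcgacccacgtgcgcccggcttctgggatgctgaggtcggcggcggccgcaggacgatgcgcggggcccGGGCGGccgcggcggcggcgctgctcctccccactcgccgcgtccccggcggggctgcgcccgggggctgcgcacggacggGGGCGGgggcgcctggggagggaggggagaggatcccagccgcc
LAMB3: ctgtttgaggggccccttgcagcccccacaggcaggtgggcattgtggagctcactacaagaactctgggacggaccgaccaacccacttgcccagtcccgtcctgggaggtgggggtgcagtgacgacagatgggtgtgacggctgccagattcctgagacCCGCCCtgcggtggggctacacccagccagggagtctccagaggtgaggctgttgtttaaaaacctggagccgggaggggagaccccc
The ITGB8 window holds 2 GC boxes and 1 CCAAT box, the ITGB1 window 3 GC boxes, the DST window 4 and the LAMB3 window 1. The windows shown are the first of several for ITGB1, DST and LAMB3. Which DST start makes the epithelial product was not analysed here. The second ITGB1 window has 0 GC boxes and 3 TATA matches, the other DST windows have 0 GC boxes and the last also 2 CCAAT matches, and the third LAMB3 window has 1 AP-1 and 1 CCAAT match besides its GC box. RefSeq windows were matched for 23 members, 32 windows in all, since a gene can have several starts. Of the 12 members that rose, 8 had windows here, 13 in all. The other 19 windows came from 15 members that fell, did not pass or were not tested. A GC box was in 6 of 13 windows of members that rose and in 10 of 19 of the others, beside 42.6% of all 35116 windows. A CCAAT box was in 2 of 13 and 4 of 19 (32.0% of all), a TATA box in 2 of 13 and 0 of 19 (10.7%), and an AP-1 site in 0 of 13 and 1 of 19 (4.20%). These are matches of letters, counted without a test, and no binding was measured.

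Partner genes were counted in 6 lists drawn from textbook roles, in the same fit. The lists were chosen with earlier results of these data known, so their shares only describe these arrays and test nothing. The plakins, keratins and other intermediate filament genes had the highest share: 7 of 13 were higher and 0 lower (8 and 0 at an unadjusted p under 0.05), with a median of 0.48. The 7 higher are 53.8%, beside 17.7% of all genes. KRT15, a basal-layer keratin, read 8.83 and 8.86 in mimic and 7.30 and 6.98 in control cells, or 1.70 ± 0.12 (adjusted p = 0.0017, 3.25-fold). EPPK1, which encodes the keratin-binding epiplakin, read 6.02 and 5.94 against 4.54 and 4.45, or 1.49 ± 0.068 (adjusted p = 0.00103, 2.80-fold). KRT14, the keratin that ends at hemidesmosomes together with KRT5, differed by 1.15, and SYNM, the intermediate filament protein synemin, by 0.98.

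KRT14 and KRT5 also belong to the epithelial marker list. Its summed log2 level over 6 genes was 62.5 and 62.6 in mimic against 61.1 and 60.8 in control arrays. KRT14 and KRT5 were the members of it that rose, and the other 4, EPCAM (0.15), CDH1 (0.04), DSG3 (-0.07) and SFN (-0.14), did not pass. The part of this shift in the hemidesmosome values was not tested.

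Of 17 other basement membrane genes tested, 6 were higher and 0 lower (9 and 1 at an unadjusted p under 0.05), with a median of 0.18. The 6 higher are 35.3%, beside 17.7% of all genes. NID1, whose product nidogen links laminin to collagen IV, read 7.58 and 7.59 in mimic and 6.53 and 6.17 in control cells, a difference of 1.23 ± 0.13 (adjusted p = 0.00437, 2.35-fold), though 1 of its 3 probe sets read -0.30. MATN2, a matrix adaptor protein, differed by 0.79 and COL18A1, the source of endostatin, by 0.53. COL7A1, the anchoring fibril collagen that fastens the basement membrane beneath hemidesmosomes, read 7.14 and 7.26 against 6.86 and 6.82, or 0.36 ± 0.068 (adjusted p = 0.0197, 1.28-fold).

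Among 23 integrin ligands outside the laminins, 6 were higher and 1 lower (26.1% and 4.35%, beside 17.7% and 12.3% of all genes). Their median was 0.04 and became -0.03 after quantile normalization. NPNT, which encodes nephronectin, read 5.34 and 5.51 in mimic and 3.84 and 3.78 in control cells, or 1.61 ± 0.080 (adjusted p = 0.00112, 3.06-fold). ADAM9, a membrane protease that binds integrins, differed by 1.28, and CCN2, a secreted matrix protein known as a YAP target, by 1.03. TGFB1, whose latent complex is a ligand of alphaV integrins including the one with ITGB8, read 5.45 and 5.40 against 4.74 in both controls, a difference of 0.68.

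The remaining lists moved in both directions or hardly at all. Focal adhesion adaptors and kinases gave 6 higher and 5 lower of 31 (19.4% and 16.1%, near the shares over all genes). Their median was 0.01, and quantile normalization gave 5 higher and 7 lower with a median of -0.05. They were led by PARVA, the actin linker parvin (0.88 ± 0.12, adjusted p = 0.00851), KANK1, which meets talin at the adhesion rim (0.51, but 0.04 without _s_at and _x_at probe sets), the integrin activator FERMT1 (0.45) and TNS4 (0.41). The 5 that fell were ARHGEF7 (-0.35), FERMT2 (-0.29), VASP (-0.27), LIMS1 (-0.26) and VCL (-0.21). Other laminin receptors and tetraspanins gave 4 higher and 3 lower of 22 (18.2% and 13.6%, near the shares over all genes), and 0 higher and 4 lower of 19 without _s_at and _x_at probe sets. There the syndecan SDC1 rose by 0.53 ± 0.058 (adjusted p = 0.00498), the tetraspanins CD81 and TSPAN4 by 0.42 and 0.34, and TSPAN1 fell by 0.43. TSPAN4 did not pass without _s_at and _x_at probe sets (0.39, adjusted p = 0.082). Among 12 genes that process or remodel laminin-332, 0 were higher and 2 lower (3 in each direction at an unadjusted p under 0.05): the protease HPN at -0.43 and the urokinase receptor PLAUR at -0.33. The 2 lower are 16.7%, near the 12.3% of all genes. As means over the probe sets of a gene, FERMT1, TSPAN4, HPN and PLAUR did not pass (0.21, 0.35, -0.24 and -0.24), nor did PLAUR without _s_at and _x_at probe sets (-0.12), while NPNT (0.72), ADAM9 (0.80), CCN2 (0.51), NID1 (0.64), PARVA (0.47), KANK1 (0.28) and SYNM (0.43) were smaller but kept their calls.

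**Figure D4:**
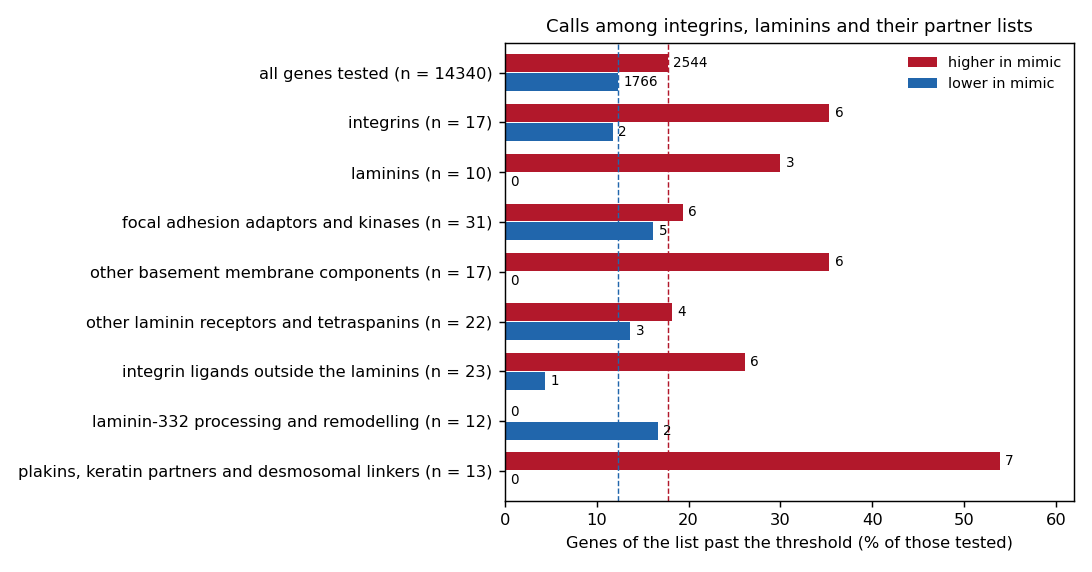
Share of tested genes past the threshold (x axis, percent) that were higher (red) or lower (blue) in mimic cells, for all genes, the integrins, the laminins and 6 partner lists, with the number of genes at each bar and dashed lines at the shares over all genes. The keratin and plakin list has 7 of 13 higher and none lower, and the focal adhesion list stays near both lines with 6 higher and 5 lower of 31.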

How the data were processed

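Total RNA of SCC-15 cells was measured on 4 arrays, with samples grouped by their labels. The authors deposited 1 intensity per probe set and array on a linear scale, made with RMA per the submitters' processing notes; its version is not given in the sources used here. RMA adjusts background and equalises probe distributions, which compresses the differences of dim probe sets. No detection calls were used. Log2 was taken. Of 49293 probe sets 44988 had 1 gene symbol, 1832 several and 2473 none; 44961 matched RefSeq (GRCh38.p14) by gene ID. The lowest 30% by mean (below an intensity of 7.10) were left out, and the brightest probe set stood for a gene. limma 3.58.1 (lmFit, eBayes, R 4.3.3; 4.98 total degrees of freedom) compared mimic with control without a replicate block. For a single gene, the smallest two-sided p that 2 against 2 arrays allow in an exact permutation test is 0.333. The number of arrays limits the precision.

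Members and lists were chosen with earlier results of these data known. Named were every member, with array values for those called and for hemidesmosome and laminin-332 genes and their receptors (ITGA3, ITGB1), and up to 4 called genes with the largest difference per partner list. A few array values beyond this rule (ITGA7, ITGB2, LAMB1 and LAMC1), the marker genes and 1 level threshold were added after values were seen. The focal adhesion genes that fell were also named then. Alternatives varied the filter, probe-set rule, normalization, offset, variance model, replicate block and arrays.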

Additional observations from a re-analysis of the deposited data

How the results depend on the processing

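Of the 14 called members, ITGB8, LAMA1, DST, ITGB4, ITGB1 and ITGA10 kept direction and call in every alternative that tested them except those that left out an array; LAMA1 was not tested with the lowest 50% left out. Counts that moved by over 1.5 times were, with no filter, 7 members higher and 7 partner genes lower; with the lowest 50% left out, 1 member and 2 member probe sets lower; after quantile normalization or with log2(intensity + 16), 2 member probe sets lower; and with eBayes trend and robust, 29 member probe sets higher and 2 lower. Fewer genes were tested in the 50% setting; otherwise the cause was not tested. Quantile normalization gave 2058 genes higher and 2619 lower, 44.0% of calls higher instead of 59.0%, and 9 members higher and 3 lower.

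Same-numbered samples did not deviate together across genes (correlation -0.001). That value shows no shared shift, but it cannot show whether the labels' numbers pair the samples. With the replicate number as a block, 979 genes were lower, 7 members higher, 4 partner genes lower, and 1 member probe set higher and 0 lower; ITGAV, ITGA2, ITGA6, LAMA5 and PLEC did not pass.

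Leaving out each array in turn gave 0 to 796 genes higher and 0 to 167 lower, 0 to 4 members higher and 0 to 1 lower, 0 to 12 partner genes higher and 0 to 0 lower, and 0 to 0 member probe sets in either direction; the lone sample of an arm is assumed to vary like the other arm. Direction turned there for ITGA1 (-0.11 to 0.24), LAMB2 (-0.17 to 0.032), LAMB1 (-0.14 to 0.035) and ITGB7 (-0.052 to 0.28), none of which had passed. As the mean over probe sets ITGB7 was -0.12, ITGB3 -0.048 and LAMB3 0.015, and without _s_at and _x_at probe sets ITGAV was -0.085 and LAMC1 0.27; other probe sets then stand for the gene. Members whose probe sets are near the dim level have no measured background, so low levels there cannot be told from none.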
